A study of Homo sapiens with 38 samples.

Results

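The comparison described here set nuclear RNA from cells without AGO1 and AGO2 beside nuclear RNA from cells without AGO2 alone. It asked what the loss of AGO1 did to nuclear RNA once AGO2 was already absent. The members were chosen by their titles: 3 nuclear AGO2 knockout libraries (passages 8, 9 and 10) and 3 nuclear AGO1/2 knockout libraries (passages 9, 10 and 11). They are 6 of the 38 samples that the labels list, of which 30 are RNA-seq libraries with values. All cells were HCT116, a human colorectal carcinoma line, and both groups lacked AGO2. Each genotype was 1 line, edited with CRISPR from HCT116 cells by a commercial service. Whether the AGO1/2 line was made from the AGO2 line is not given in the sources used here. Clone, passage and genotype therefore cannot be told apart, and the 3 libraries of a group differ by the passage of 1 line.

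Argonaute proteins hold a microRNA and use it to find target RNAs by base pairing, mainly through the seed at the 5′ end of the microRNA. In the cytoplasm the complex recruits TNRC6 scaffold proteins and the CCR4-NOT deadenylase, which lowers the stability and translation of the target. AGO2 can also cut a fully paired target, and AGO1, AGO3 and AGO4 share the pathway that does not need cutting. Argonautes are also found in nuclei, where roles in transcription and splicing have been proposed.

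The nuclear AGO2 knockout libraries held 35.5 to 36.9 and the AGO1/2 libraries 47.8 to 54.1 estimated reads, each in units of 1000000 reads. Levels are given in CPM, the counts per 1000000 after scaling with TMM, a method that assumes that most genes do not change. Levels of different genes are compared only in TPM, which corrects for transcript length. Fold changes are log2 values of AGO1/2 over AGO2 knockout from edgeR's quasi-likelihood test, and calls were made at 0.05 after Benjamini-Hochberg adjustment. P-values measure the spread between passages of 1 line. Beside these stand 6 nuclear libraries of wild-type and AGO1 knockout cells and 6 cytoplasmic libraries of the AGO2 and AGO1/2 lines. The wild-type libraries are of passages 27, 28 and 29 and the AGO1 knockout libraries of passages 6, 7 and 8. By a chi-square distance per gene, wild-type passage 29 stood 43.4 and 39.2 from passages 27 and 28, which stood 4.83 apart. AGO1/2 passages 10 and 11 stood 41.7 apart, and this distance grows with depth. In bulk RNA, fewer cells of a type and less RNA per cell cannot be told apart. Most markers of other cell types were near 0: 5 of 7 stayed below 0.1 TPM in all AGO2 knockout nuclei and 6 of 7 in all AGO1/2 nuclei. The summed level of the 7 was 4.19 to 4.64 and 4.32 to 6.10 TPM. Nearly all of it was COL1A1, a collagen gene, with means of 4.25 and 5.20 TPM.

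AGO1 mRNA marked the groups as labelled. AGO1 (ENSG00000092847.14; hg38 chromosome 1, 35869808 to 35930532, plus strand) stood at 171, 162 and 163 CPM in the AGO2 knockout and at 38.5, 37.8 and 42.0 in the AGO1/2 knockout. The groups did not overlap, and the mean was 4.18-fold lower (log2 fold change -2.06 ± 0.07 (SE), adjusted p = 1.2e-11). About 1 in 4 of the reads therefore remained, spread over the same transcripts. The 13708-nt AGO1 mRNA went from a mean of 6.81 to 2.03 TPM and the 3996-nt mRNA from 3.61 to 0.668 TPM, while a 2836-nt transcript annotated for nonsense-mediated decay went from 0.802 to 0.0349 TPM. In cytoplasmic RNA of the same lines the fall was larger (log2 fold change -3.36), and the difference between the fractions passed its own test (1.22, adjusted p = 2.2e-08). Protein was not measured in these files.

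AGO2 mRNA was 375, 340 and 357 CPM in the AGO2 knockout and 445, 483 and 387 in the AGO1/2 knockout, so AGO2 mRNA was still read in both lines, against a mean of 496 in wild-type nuclei. The rise between the groups was small (log2 fold change 0.30 ± 0.08, adjusted p = 0.0047), and on the TPM scale it did not pass the test. AGO4 was 10.5, 12.2 and 14.6 against 20.5, 19.3 and 24.7 CPM. These groups did not overlap (log2 fold change 0.79 ± 0.13, adjusted p = 1.1e-04), although AGO4 stayed low in both at 1.4 and 2.60 TPM. AGO3 was 153, 144 and 160 against 141, 148 and 141, values that overlapped (log2 fold change -0.09 ± 0.06, adjusted p = 0.22). AGO3 was called lower under 2 alternatives, TMM factors from protein-coding genes and a filter at a mean count of 50.

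Large numbers of genes differed. Of 18919 genes tested, 10284 were called (54.4%), of which 5228 were higher in the AGO1/2 knockout (27.6% of those tested) and 5056 lower (26.7%). Levels of the groups did not overlap for 11965 genes (63.2%). Most changes were modest, since 77.5% of called genes differed by less than 2-fold, with 923 called genes at least 2-fold higher and 1389 at least 2-fold lower. The balance of directions depended on the scaling. On log2(TPM + 0.1) with limma 6151 genes were higher and 2452 lower, with the median of all genes at 0.15, and with TMM factors taken from protein-coding genes 4013 were higher and 6325 lower, with the median at -0.14, against -0.03 in the values given here. Directions of small changes are therefore relative to these medians. For 3 libraries against 3, the smallest p of an exact two-sided permutation test is 0.1, which every gene without overlap reached, so single genes rest on the spread shared across all 15 nuclear libraries.

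**Figure D1:**
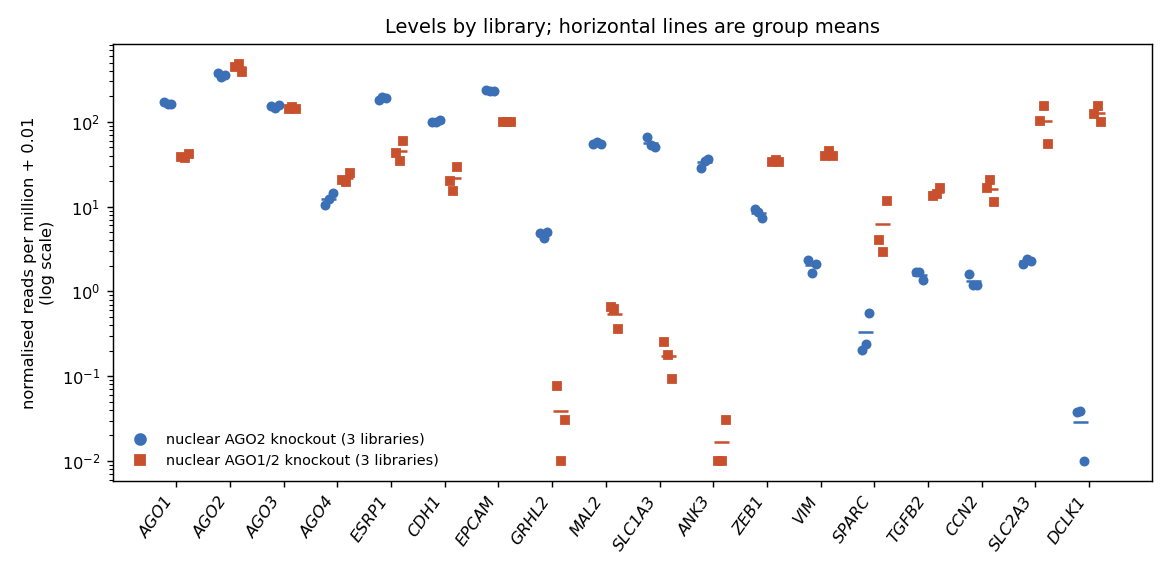
CPM (counts per 1000000, TMM-scaled) with 0.01 added (log axis) for 18 genes in each of the 3 nuclear AGO2 knockout libraries (circles) and the 3 nuclear AGO1/2 knockout libraries (squares), with lines at group means. AGO1 is 4.18-fold lower and AGO3 overlaps, while GRHL2, ANK3 and DCLK1 are close to 0 in 1 of the groups.

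The genes with the largest rises were silent or nearly so in AGO2 knockout nuclei. DCLK1, a kinase that binds microtubules and marks tuft cells in the gut, had 2 reads in all over the AGO2 knockout libraries (0.0278, 0.0286 and 0 CPM) and 125, 155 and 98.5 CPM in the AGO1/2 knockout. From these reads the ratio was 6616, with a 95% counting interval of 1831 to 54631. Wild-type and AGO1 knockout nuclei were also low, with means of 1.61 and 0.765 CPM, so only the AGO1/2 line of these 4 was high. VIM, the intermediate filament of mesenchymal cells, was 2.31, 1.63 and 2.10 against 39.5, 44.7 and 40.0 (20.6-fold higher, log2 fold change 4.36 ± 0.12, adjusted p = 1.3e-12). Its antisense gene VIM-AS1 rose too, from a mean of 0.453 to 5.71 CPM (3.64 ± 0.20). The library kit keeps the strand, but whether the counting used it is not given in the sources used here.

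Other rises covered adhesion, transport and signalling. SLC2A3, a high-affinity glucose transporter, had a mean of 2.25 ± 0.159 against 104 ± 50.1 CPM (SD, n = 3 each, 46.0-fold). The AGO1/2 libraries ran from 55 at passage 11 to 155 at passage 10, all above the AGO2 knockout. TENM3, a teneurin that joins neighbouring cells, was 50.3-fold higher, and INHBB, a subunit of activin B, was 23.8-fold higher. TM4SF18, MYBPH, PRSS33, SERTAD4 and LYZ rose from means of at most 0.171 CPM to means between 2.46 and 14.1.

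For 2 of these genes wild-type nuclei were not low. ZNF595, a zinc finger gene at the end of chromosome 4, had 1 read in the AGO2 knockout libraries (0.0278, 0 and 0) and 11.2, 9.92 and 10.3 CPM in the AGO1/2 knockout. Wild-type and AGO1 knockout nuclei had means of 9.60 and 14.2. PRKAA2, a catalytic subunit of AMP-activated kinase, was 0, 0.457 and 0 against 11.7, 12.3 and 12.8, while wild-type nuclei had a mean of 13.4 and AGO1 knockout nuclei 0. Both genes thus stood near the wild-type level in the AGO1/2 line, and differences between lines and the loss of Argonaute cannot be told apart.

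The largest falls ended near 0. ANK3, ankyrin-G, which anchors membrane proteins to spectrin, was 28.7, 34.9 and 36.9 CPM against 0, 0 and 0.0205, which rests on 1 read (4531-fold lower, 95% counting interval 813 to 179015). LRP1B, a giant lipoprotein receptor relative, was 3.28, 3.51 and 6.16 and had no read in the AGO1/2 libraries, so it was at least 194-fold lower, taking 3 reads over the group as the floor. SLC1A3, a glutamate transporter, was 65.8, 53.6 and 51.0 against 0.246, 0.166 and 0.0820 (345-fold lower). ADGRF1, an adhesion G protein-coupled receptor, fell 74.1-fold from the higher mean of 164. HMCN1 had 2 reads left (276-fold lower, 95% counting interval 76.0 to 2288), and GRB14, ARHGAP24, CABYR and CNTN1 fell between 45.9-fold and 96.6-fold. CABYR was high in the AGO2 knockout (mean 6.13 CPM) and low in wild-type and AGO1 knockout nuclei as well (0.279 and 0.173 CPM). Wild-type means were also below the AGO2 knockout for SLC1A3 (23.4), ADGRF1 (60.2) and ARHGAP24 (2.91). They were above it for ANK3 (40.6), LRP1B (10.0), HMCN1 (7.26), GRB14 (7.72) and CNTN1 (4.62). For ANK3, SLC1A3, ADGRF1, HMCN1 and GRB14 no call was made in the AGO1 knockout against the wild type (log2 fold changes between -0.25 and 0.01). CABYR and CNTN1 were not called there either (-0.69 and -0.20), while LRP1B and ARHGAP24 were called lower (-2.83 and -1.33).

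Among long noncoding genes, FEZF1-AS1 fell 8.61-fold (log2 fold change -3.09 ± 0.17) and ENSG00000260711 15.6-fold (-3.95 ± 0.25). ENSG00000248596 rose 5.53-fold. A pair of genes on chromosome 21, ENSG00000278996 and ENSG00000280441, had means of 29.2 and 28.8 CPM in the AGO1/2 knockout and scattered values in the AGO2 knockout (0, 4.57 and 0, and 4.83, 0 and 4.17). Reads may have been divided between near-identical copies, so neither value stands alone, and ENSG00000280441 was not called by DESeq2.

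By amount of RNA, small structural RNAs dominated. RMRP, the RNA of RNase MRP, went from a mean of 158767 to 82125 TPM, and its CPM were 22796, 23019 and 27023 against 10209, 9350 and 12202 (log2 fold change -1.20 ± 0.14, adjusted p = 4.1e-06), a call that was lost on log2(TPM + 0.1). The small nucleolar RNAs SNORA73A, SNORA73B and SNORD13 and the variant U1 RNA RNVU1-7 fell as well, by 1.21, 1.03, 1.97 and 1.74 on the log2 scale. RN7SL1, the RNA of the signal recognition particle, went from 122384 to 171601 TPM, but its rise of 0.24 on the scale of the test was lost without the AGO2 library of passage 8 (0.18). The messengers with the largest gain in TPM were TMSB10, GAPDH, EEF1A1 and PPIA, abundant housekeeping mRNAs that rose by 0.30 to 0.86 on the log2 scale. TPM values of a library sum to a fixed total, of which RMRP and RN7SL1 are a large part, and RNVU1-7 has near-identical copies between which reads may be divided.

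Chromosome 8 stood out among the chromosomes. Its last stretch, from 75 Mb to the end, held 339 tested genes, of which 254 were lower (74.9%, against 26.7% of all genes) and 11 higher, with a median log2 fold change of -0.76. The boundary was chosen after the values were seen. Genes before 75 Mb had a median of 0.03 and genes on all other chromosomes -0.02. Among autosomes other than 8 and the X chromosome, medians ran from -0.14 to 0.10. Medians of genes with at least 1 TPM were also taken in windows of 15 Mb. They were -0.17 (0 to 15 Mb), 0.15 (15 to 30 Mb), 0.16 (30 to 45 Mb), 0.10 (45 to 60 Mb) and 0.05 (60 to 75 Mb). From 75 Mb to the end they were -0.69, -0.58, -0.49, -0.69 and -0.77. The boundary is an edge of these windows, so they do not locate where the fall begins. In the window from 105 to 120 Mb all 18 such genes were lower. From 75 Mb on, 202 of 241 such genes were lower (83.8%), and their median corresponds to a level 1.6-fold lower.

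The same stretch was lower in cytoplasmic RNA, with 200 of 295 tested genes called lower (22.7% of all genes were, and 23.1% higher) and a median of -0.66. Against wild-type nuclei, genes from 75 Mb had medians of -0.05 in the AGO1 knockout, -0.08 in the AGO2 knockout, -0.60 in the AGO1/2 knockout and -0.59 in the AGO1/2/3 knockout. These 4 medians share the wild-type libraries. The median stayed between -0.48 and -0.87 under the other scalings. DNA copy number was not measured, and its part in the result was not tested. Of the 1389 genes at least 2-fold lower, 104 lay in this stretch. Without it, 5217 genes were called higher and 4802 lower.

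**Figure D2:**
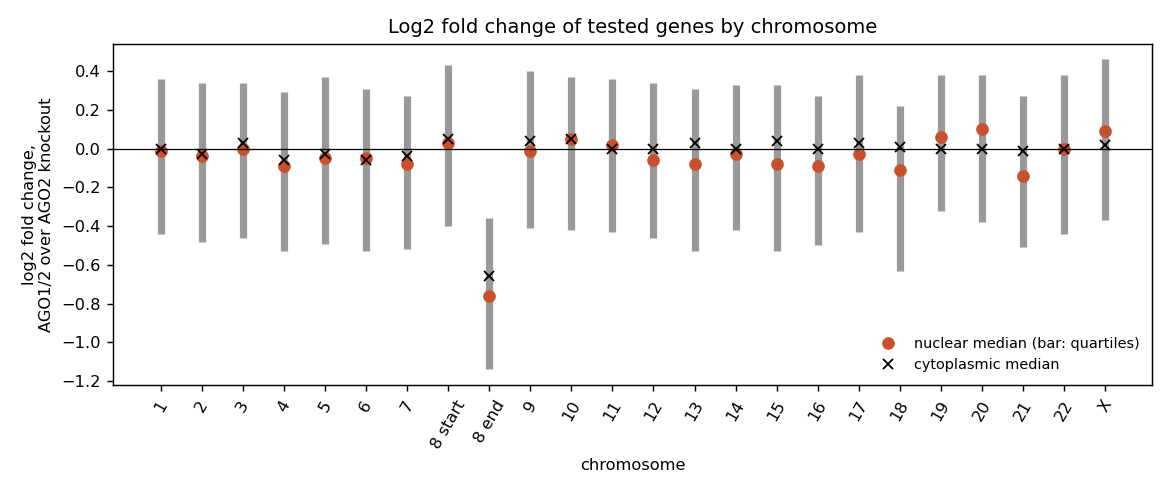
Log2 fold change (AGO1/2 over AGO2 knockout) of tested genes by chromosome (autosomes and X, without chromosome M), with the nuclear median (circle), the nuclear quartiles (bar) and the cytoplasmic median (cross); chromosome 8 is divided at 75 Mb. The end of chromosome 8 has a nuclear median of -0.76 and a cytoplasmic median of -0.66, while the other nuclear medians lie between -0.14 and 0.10.

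Several genes of epithelial cells and growth control lie in that stretch. ZNF704, a zinc finger gene (chromosome 8, 80628451 to 80874781, minus strand), was 113, 118 and 125 CPM against 0.515, 0.855 and 0.635 (177-fold lower). GRHL2 (chromosome 8, 101492439 to 101669726, plus strand), a transcription factor of epithelial identity, was 4.92, 4.23 and 4.98 against 0.0672, 0 and 0.0205 (161-fold lower). MAL2, a protein of apical transport, was 104-fold lower (55.3, 57.7 and 54.7 against 0.650, 0.617 and 0.348). These 3 falls were far larger than the median of the stretch. MYC, the growth-promoting transcription factor, was 413, 395 and 435 against 184, 187 and 207 (2.15-fold lower), and the neighbouring noncoding PVT1 was 2.44-fold lower. Not all genes there fell: NDRG1, a hypoxia-responsive gene, rose 3.26-fold (57.3, 61.1 and 73.3 against 205, 202 and 219), and AGO2, described above, lies there too.

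Genes of epithelial junctions and keratins were called lower more often than all genes. Of 30 tested, 13 were lower (43.3%, against 26.7% of all genes) and 8 higher (26.7%, near the 27.6% of all genes). The median was -0.20, which became 0.00 on log2(TPM + 0.1). CDH1, E-cadherin of the adherens junction, was 98.4, 99.2 and 105 CPM against 19.8, 15.3 and 29.5 (4.69-fold lower, log2 fold change -2.23 ± 0.25, adjusted p = 2.9e-06). EPCAM, an epithelial adhesion molecule, was 240, 231 and 231 against 99, 99.1 and 98.4 (2.37-fold lower). The groups did not overlap for either gene. CLDN7 of the tight junction fell by 1.90 on the log2 scale, and ELF3, an epithelial transcription factor, by 1.12. ESRP1, which directs epithelial splicing and lies on chromosome 8 (94641074 to 94707466, plus strand), was 181, 195 and 189 against 42.9, 34.5 and 59.3 (4.13-fold lower, log2 fold change -2.05 ± 0.17, adjusted p = 1.9e-07).

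Keratins went the other way. KRT8 and KRT18, the keratin pair of simple epithelia, rose 2.09-fold and 2.23-fold. KRT8 was 1224, 1163 and 1078 CPM against 2366, 2439 and 2432. KRT19, KRT7 and KRT80 rose as well (log2 fold changes 0.83, 1.71 and 1.95), although KRT7 was not called on length-scaled counts. The summed level of 7 colon epithelial markers, which is mostly keratin, therefore rose from 1122 to 1360 TPM in the AGO2 knockout to 2598 to 2775 TPM. In cytoplasmic RNA the sums overlapped (902 to 1092 and 808 to 981 TPM), and 19 of the 30 junction and keratin genes were lower there, with a median of -0.67.

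Of 18 listed mesenchymal genes 9 passed the filter on low counts, and 5 of these rose, namely VIM, ZEB1, SPARC, FN1 and TWIST1. The other 4 were not called. SPARC and TWIST1 were also present in wild-type nuclei (2.30 and 0.838 CPM). ZEB1, a repressor of CDH1 and a target of the miR-200 family, was 9.33, 8.57 and 7.28 CPM against 33.6, 35.6 and 33.3 (4.07-fold, log2 fold change 2.02 ± 0.11, adjusted p = 2.1e-09). SPARC, a matrix protein, was 0.194, 0.228 and 0.547 against 4.08, 2.87 and 11.5 (19-fold). FN1, fibronectin, rose 2.12-fold, from a mean of 20.2 to 42.8 CPM, which is near its wild-type mean. TWIST1 rose 4.42-fold, from 0.131 to 0.581, a low level. ZEB2 and CDH2 remained at or below 0.0113 TPM in both groups. SNAI1, TAGLN, ACTA2 and S100A4 were not called (log2 fold changes 0.13, 0.22, 0.01 and 0.52). In the AGO1 knockout against the wild type VIM and ZEB1 were higher (0.86 and 0.39), SPARC and FN1 were lower (-3.46 and -0.85), and over the list 3 genes were higher and 4 lower. The difference between the effects with and without AGO2 passed the test for ZEB1 (1.63, adjusted p = 1.6e-06), SPARC (7.71, adjusted p = 4.1e-06) and VIM (3.50, adjusted p = 3.0e-09).

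Adhesion receptors and the TGF-beta pathway were mostly higher. Of 17 integrin and adhesion receptor genes, 11 were higher (64.7%, against 27.6% of all genes) and 3 lower (17.6%, against 26.7%), with a median of 0.76. ITGB4, a laminin receptor subunit of hemidesmosomes, was 323, 295 and 360 CPM against 1314, 1283 and 1836 (4.54-fold), and L1CAM rose 6.72-fold. ITGA1 and ITGA2, collagen receptor subunits, fell 12.6-fold and 2.36-fold. Of 22 TGF-beta pathway genes, 15 were higher (68.2%) and 1 lower (4.5%), with a median of 0.41. Among ligands, TGFB2 was 1.69, 1.68 and 1.35 against 13.5, 14.1 and 16.6 (9.35-fold). Among receptors TGFBR1 rose by 0.83 and TGFBR2 did not pass the test (0.11). Of the targets, CCN2 rose 12.2-fold and the inhibitory SMAD7 3.91-fold. LTBP1, which stores latent TGF-beta in the matrix, was the member that fell (5.43-fold). Of 23 collagens 10 were higher (43.5%) and 6 lower (26.1%), led by COL13A1 (10.9-fold higher). These shares are near those of protein-coding genes with a 3′UTR (37.1% and 22.0%), and the share lower is near that of all genes (26.7%).

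Among Wnt targets, 11 of 18 were higher and 3 lower (median 0.54). CCND1, cyclin D1, was 738, 641 and 679 CPM against 1729, 2045 and 1544 (2.58-fold). SP5, a direct target of beta-catenin, rose 4.10-fold, and MYC was among the 3 that fell. Of 25 genes of cholesterol synthesis, 20 were higher and SQLE, which lies in the lowered stretch of chromosome 8, was the member that was lower (-0.30, which lost its call without any of 3 single libraries). INSIG1, which restrains cholesterol synthesis, was 29.6, 30.1 and 29.8 against 105, 60.7 and 118, so every AGO1/2 library lay above the AGO2 knockout. The median of this list was 0.57, and in the AGO1 knockout against the wild type it was 0.65, with 21 of 25 higher (14.3% of all genes were higher in that comparison, and 15.6% lower). For 4 of the 25 genes the effect differed by AGO2 status.

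Glycolysis and hypoxia genes had 17 of 25 higher and 4 lower, with SLC2A1, the main glucose transporter of most cells, at 137, 116 and 117 against 520, 627 and 487 (4.41-fold) and PDK1 the member with the largest fall (-0.98). HOX genes had 15 of 30 higher and 2 lower, and interferon-stimulated genes 13 of 28 higher and 1 lower. All 4 tested metallothionein genes were higher, MT1X by 2.05-fold. Of 25 p53 targets 7 were higher (28.0%, against 27.6% of all genes) and 4 lower (16%, against 26.7%), whereas 14 of the 25 were higher in the AGO1 knockout against the wild type. For 13 p53 targets the effect differed by AGO2 status, with a median difference of -0.52. That difference was called for 7368 of 18919 genes (38.9%), 20.8% higher and 18.1% lower.

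**Figure D3:**
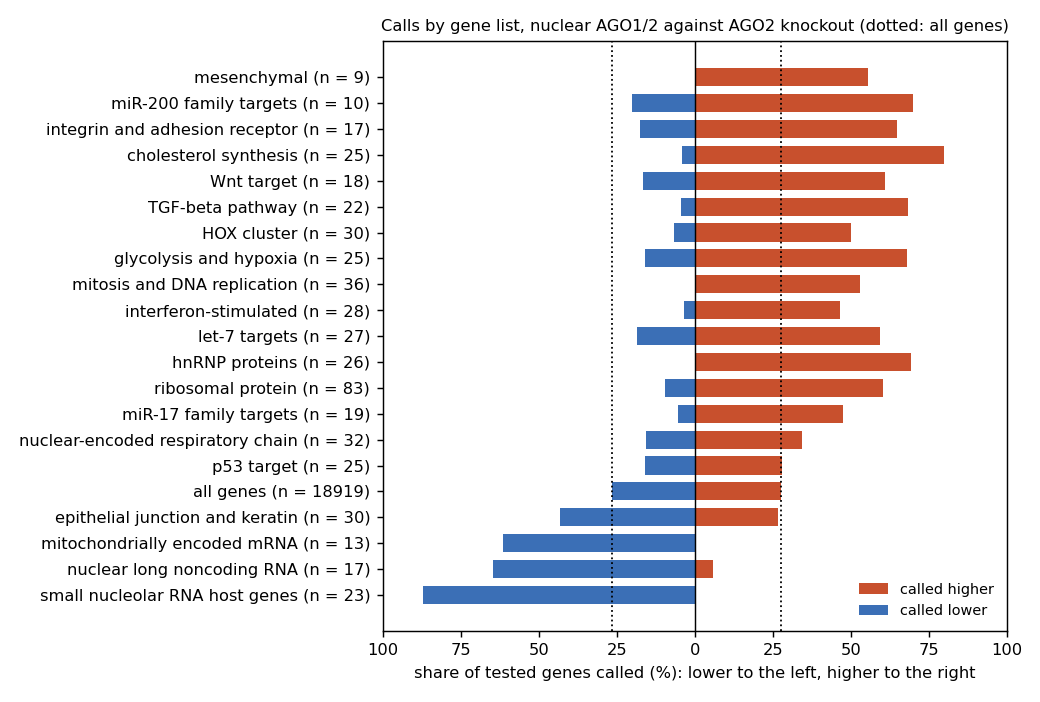
Share of the tested genes of 20 lists, and of all 18919 genes, called higher (right) or lower (left) in nuclear AGO1/2 against nuclear AGO2 knockout; dotted lines mark the shares over all genes, 27.6% and 26.7%. Cholesterol synthesis genes are mostly higher and small nucleolar RNA host genes mostly lower. Most lists hold protein-coding genes, and of 12741 tested protein-coding genes with a 3′UTR 37.1% were higher and 22.0% lower.

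Genes of the microRNA pathway went both ways. Of 15 maturation genes 4 were higher (26.7%) and 5 lower (33.3%), near the shares of all genes (27.6% and 26.7%). These counts became 4 and 8 with TMM factors from protein-coding genes and 4 and 1 on log2(TPM + 0.1). DROSHA, the nuclear nuclease that starts processing, was slightly lower (-0.25), and DICER1 and DGCR8 were not called (0.06 and 0.01). LIN28B and LIN28A of the same list were lower (-2.39 and -0.94), LIN28B on 22 against 5 reads. LIN28A lost its call when some of the single libraries were left out. Of 13 partners of Argonaute 7 were higher and 2 lower, which became 4 and 3 with TMM factors from protein-coding genes. TNRC6C, a scaffold that links Argonaute to deadenylation, was 71.7, 70.6 and 70.6 CPM against 112, 116 and 107 (log2 fold change 0.65 ± 0.06, adjusted p = 3.2e-07), and TNRC6A and TNRC6B rose by 0.30 and 0.33. ANKRD52, part of the phosphatase that resets Argonaute, rose 2.01-fold. Of 25 deadenylation and decapping genes 10 were higher and 1 lower (median 0.11), and this balance became 7 and 6 with TMM factors from protein-coding genes. Their median was 0.01 when measured from the class of nuclear location described further on.

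Of 15 microRNA host genes 6 were lower and 2 higher, with a median of -0.11, or 0.13 on log2(TPM + 0.1) and 0.02 measured from the class of nuclear location described further on. In cytoplasm 6 were higher and 2 lower (median 0.38). MIR200CHG, the host of miR-200c and miR-141, was 1.53, 1.26 and 1.41 CPM against 0.582, 0.190 and 0.574 (3.12-fold lower, log2 fold change -1.62 ± 0.28, adjusted p = 2.2e-04). MIR17HG, the host of the miR-17 cluster, was 41.8, 40.6 and 40.5 against 14.3, 15.9 and 16.6 (2.63-fold lower). MIR22HG rose 2.28-fold. Mature microRNAs were not measured.

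The mature microRNAs whose target lists are described next are shown with the seed, bases 2 to 8, in capitals, from RefSeq (GRCh38.p14). The first pair comes from MIR200CHG on chromosome 12 and carries different seeds, and the others represent the lists of let-7, miR-17 and miR-21 targets.
hsa-miR-200c-3p: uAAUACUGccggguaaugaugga
hsa-miR-141-3p: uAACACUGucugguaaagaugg
hsa-let-7a-5p: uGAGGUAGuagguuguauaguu
hsa-miR-17-5p: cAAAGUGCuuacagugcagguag
hsa-miR-21-5p: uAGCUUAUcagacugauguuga

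All tested genes with a 3′UTR, the background for known targets of these families, were 37.1% higher and 22.0% lower. Of 27 let-7 targets, 16 were higher and 5 lower (median 0.29). HMGA2, a chromatin protein with many let-7 sites, was 617, 599 and 595 CPM against 826, 870 and 895 (1.43-fold), THBS1 rose 3.33-fold, and LIN28B, MYC and IGF1R fell, of which LIN28B and IGF1R were not called on either log2 TPM scale. LIN28B was low in both groups, with means of 0.209 and 0.0365 CPM. Of 19 targets of the miR-17 family 9 were higher and 1 lower (median 0.21), among them the cell cycle inhibitors RB1 (94.6, 91.9 and 90.7 against 169, 180 and 166) and CDKN1A (1.62-fold). Of 12 miR-21 targets 6 were higher and 3 lower. TIMP3, an inhibitor of matrix proteases, was 13.8-fold higher, and the receptor signalling inhibitors SPRY1 and SPRY2 were lower (-0.96 and -0.77). Mean TIMP3 levels were 0.0435 TPM in the AGO2 knockout and 0.701 TPM in the AGO1/2 knockout. Wild-type and AGO1 knockout nuclei had 0.522 and 0.247 TPM. TIMP3 was thus low in the AGO2 line and near the wild-type level in the AGO1/2 line. For this gene, differences between lines and the loss of AGO1 cannot be told apart. Of 10 targets of the miR-200 family 7 were higher and 2 lower (median 0.65), including ZEB1, FN1 and SEC23A, a coat protein of the secretory pathway (111, 117 and 111 against 239, 237 and 240). ZEB1 and FN1 also stand in the mesenchymal list, and CDKN1A is a p53 target as well.

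Seed matches across all 3′UTRs gave smaller differences. Of 12741 tested genes with a 3′UTR of at least 100 nt, the 3972 without a site for any of 13 families had a median log2 fold change of 0.08. Genes with at least 1 site (the reverse complement of bases 2 to 8 on the mRNA strand) had medians of 0.06 to 0.15 for 10 families expressed in colon cells and of 0.09 to 0.11 for 3 families known from muscle, liver and brain. The ranges of the colon and the other-tissue families overlap. Genes with a site have longer 3′UTRs (medians of 2392 to 3032 nt) than genes without one (392 nt), and the part of length in these medians was not tested.

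The nuclear level of a gene moved with where its RNA lies in wild-type cells. Genes were put into 4 classes of equal size by the wild-type ratio of nuclear to cytoplasmic level, which comes from libraries outside the comparison. In the most cytoplasmic class 55.7% of genes were higher and 8.0% lower, with a median of 0.31. In the most nuclear class 4.0% were higher and 56.1% lower, with a median of -0.51. The classes between had medians of 0.14 and -0.16, and over all 18919 genes Pearson's r was -0.36, across genes that share their libraries. In cytoplasmic RNA the medians of the 4 classes were 0.09, -0.02, -0.06 and -0.09. The part of fraction purity in this pattern was not tested.

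**Figure D4:**
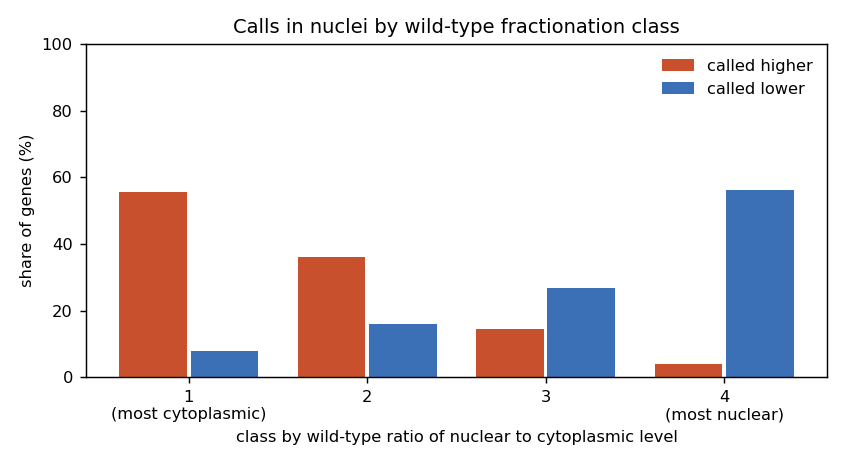
Share of genes called higher or lower in nuclear AGO1/2 against nuclear AGO2 knockout, in 4 classes of equal size ordered by the wild-type ratio of nuclear to cytoplasmic level. The share called higher goes from 55.7% in the most cytoplasmic class to 4.0% in the most nuclear one, and the share called lower from 8.0% to 56.1%.

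Markers of the nuclear fraction moved the same way. MALAT1 was 10949, 11263 and 11816 CPM against 6678, 6494 and 7960 (1.61-fold lower), and NEAT1, the RNA of paraspeckles, was 572, 697 and 638 against 301, 260 and 391 (2.0-fold lower). Their summed level was 1825 to 1923 TPM in the AGO2 knockout and 1282 to 1495 TPM in the AGO1/2 knockout. The 13 mitochondrial mRNAs, which mark cytoplasm, summed to 3878 to 4858 and 3692 to 4464 TPM, ranges that overlap. Of them 8 were called lower and 0 higher (median -0.37), a count that was 0 on log2(TPM + 0.1), while in cytoplasmic RNA 12 of the 13 were higher (median 0.85). Of 17 nuclear long noncoding RNAs 11 were lower and 1, H19, higher.

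Small nucleolar RNA host genes were mostly lower. Of 23 tested, 20 were lower and 0 higher, with a median of -0.73, which became 11 lower and a median of -0.31 on log2(TPM + 0.1). These genes carry small nucleolar RNAs in their introns, and their spliced RNAs are mostly short-lived. SNHG1 was 325, 324 and 324 CPM against 188, 192 and 169 (1.77-fold lower), GAS5 was 353, 347 and 354 against 232, 227 and 224 (1.54-fold lower), and SNHG25 was 2.17-fold lower. Measured from the median of its own class of nuclear location, the median member still had a value of -0.40. In cytoplasmic RNA the median was -0.09, with 3 of 23 lower, and in the AGO1 knockout against the wild type it was 0.28, with 14 higher and 0 lower. The effect differed between the fractions for 18 genes and by AGO2 status for all 23. Over all genes the effect differed between the fractions for 3293 of 20104 (16.4%), with 8.12% higher and 8.26% lower in nuclei.

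hnRNP genes, whose proteins bind nascent RNA, showed the opposite pattern. In nuclei 18 of 26 were higher and 0 lower (median 0.26), in cytoplasmic RNA 15 were lower and 1 higher (median -0.38), and for 20 the difference between the fractions was called. HNRNPK was 897, 908 and 888 against 1063, 1071 and 1041 CPM in nuclei, and its log2 fold change in cytoplasm was -0.68. Mitosis and replication genes (19 of 36 higher and 0 lower, median 0.30, against -0.18 in cytoplasm) and glycolysis genes (0.42 against -0.19) also differed between fractions, with 18 and 12 genes called. With TMM factors from protein-coding genes the hnRNP count became 9 higher and 1 lower and that of mitosis genes 14 and 8. Ribosomal protein genes had 50 of 83 higher and 8 lower (median 0.21), which became 28 and 10. Of these 83 genes, 78 lay in the most cytoplasmic class, of whose genes 55.7% were higher. Measured from the median of its own class, the median ribosomal protein gene had a value of -0.1. The median hnRNP, mitosis and glycolysis genes had 0.12, 0.24 and 0.16 on that scale.

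Across the fractions as a whole, 9537 of the nuclear calls were also tested in cytoplasm. Of these 5574 were called there too, which is 58.4% of the nuclear and 70.6% of the cytoplasmic calls, and 5153 had the same direction. Calls were common in both fractions: of all 16723 genes tested in both, 9537 were called in nuclei and 7898 in cytoplasm. The cytoplasmic calls were 23.6% of these genes higher and 23.7% lower. Nuclear and cytoplasmic RNA came from cultures of the same lines and passages, so these are not independent lines.

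Exon inclusion changed at few annotated exons. Inclusion is the TPM of transcripts that contain an exon as a percentage of those that contain or skip it. Events with at least 1 TPM on average were tested with limma, and calls also had to differ by 10 percentage points. Of 21744 events tested 183 were called (0.842%), 95 with more inclusion in the AGO1/2 knockout (0.437%) and 88 with less (0.405%). An adjusted p alone was reached by 1048 events. The count depended on the fit, with 62 events from the 6 libraries alone and between 82 and 142 when 1 library was left out, the lowest without the AGO2 library of passage 10. These are estimates from whole transcripts, not from reads across junctions. Exon length was a multiple of 3 for 48.1% of called and 42.5% of tested events.

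The exons printed here are leading events in SLK, ACSF2, MYOF and ABL2 and a called event in CD44. They are exon sequence from hg38 on the strand of the gene, in lower case. The largest changes among the leading events, in N4BP2L2 (-69.58 points) and AGA (44.2 points), are described below without sequence.
SLK exon, 93 nt, chr10:104010816-104010908, plus strand: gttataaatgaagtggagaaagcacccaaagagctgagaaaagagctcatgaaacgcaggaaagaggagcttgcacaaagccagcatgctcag
ACSF2 exon, chr17:50461242-50461370, plus strand: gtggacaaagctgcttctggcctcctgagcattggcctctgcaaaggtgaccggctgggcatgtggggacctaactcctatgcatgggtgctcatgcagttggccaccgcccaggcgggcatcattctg
MYOF exon, 39 nt, chr10:93392917-93392955, minus strand: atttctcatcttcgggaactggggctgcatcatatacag
ABL2 exon, 63 nt, chr1:179133312-179133374, minus strand: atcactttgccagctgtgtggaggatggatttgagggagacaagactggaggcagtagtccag
CD44 exon, 204 nt, chr11:35211246-35211449, plus strand: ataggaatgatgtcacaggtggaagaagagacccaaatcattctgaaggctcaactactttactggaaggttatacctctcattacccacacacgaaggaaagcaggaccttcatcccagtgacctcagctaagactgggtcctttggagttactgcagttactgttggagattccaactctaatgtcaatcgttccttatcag

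The SLK exon, in a kinase of the cytoskeleton, had an inclusion of 43.5%, 55.6% and 58.9% in the AGO2 knockout and 12.3%, 9.43% and 12.6% in the AGO1/2 knockout (means 52.7% ± 8.09 and 11.4% ± 1.73 (SD, n = 3), limma adjusted p = 1.5e-05). The groups did not overlap, SLK itself was not called (log2 fold change 0.17), and the cytoplasm gave 57.2% and 12.1%. The MYOF exon, in a membrane repair protein, went from 37.3%, 34.7% and 27.1% to 69.0%, 64.4% and 59.0% (adjusted p = 0.0029), and in cytoplasm from 33.4% to 60.5%. The ACSF2 exon, in a fatty acid ligase of mitochondria, went from a mean of 54.0% ± 6.39 to 89.2% ± 0.56. The ABL2 exon, in a tyrosine kinase, went from 59.6% ± 14.2 to 26.6% ± 4.71. A 177-nt exon of ALAS1, the first enzyme of heme synthesis, rose from 11.8% to 40.0% in nuclei and from 22.8% to 69.5% in cytoplasm.

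Other leading events were less even. A 76-nt exon of AGA reached 100% in all 3 AGO1/2 libraries from 55.8% ± 9.34, but with transcripts summing to 1.49 and 1.38 TPM, and in cytoplasm it was 63.1% and 70.8%. A 60-nt exon of IMPDH1 was at 0, 3.8% and 3.19% against 57.3%, 35.4% and 15.97%, a wide spread (adjusted p = 0.048), and in cytoplasm it was 14.4% and 12.7%. A 162-nt exon of N4BP2L2 was at 79.9%, 68.1% and 86.5% against 0, 25.7% and 0. Exons of UBE2C and IMPDH2 fell by 35.0 and 29.2 points, and in cytoplasm both were below 15% in either line.

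ESRP1 and its relative ESRP2 keep epithelial exons in several mRNAs, and ESRP2 was not called here (-0.10). In 9 genes known to hold exons under their control, a list made after the values were seen, 51 events were tested and 5 called. Among them were events in CD44, CTNND1 and SLK. The list names genes, so an event in it need not be an exon under ESRP control. The CD44 exon of 204 nt rose from 0.29%, 0.21% and 0.37% to 13.8%, 13.5% and 11.4%, while ESRP1 mRNA fell. A link of any of these events to ESRP1 was not tested. A 119-nt exon of CTNND1, which encodes p120-catenin, went from 85.7%, 81.4% and 84.8% to 55.3%, 59.2% and 57.3%, while in cytoplasm it went the other way, from 17.8% to 30.9%. The event at a 90-nt exon of CD44 rested on transcripts of 0.50 TPM in the AGO2 knockout, and its groups overlapped. The study followed up 7 exons from comparisons with wild-type cells, in KIF21A, PPIP5K2, PHLDB1, FKBP14, APIP, RUBCN and TBC1D5. Here the groups are AGO1/2 and AGO2 knockout, and none of the 7 was called. The largest differences were those of FKBP14 (-5.85 points, from 21.8% to 16%, with 30.5% in wild-type nuclei) and TBC1D5 (-5.41 points, adjusted p = 0.26).

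**Figure D5:**
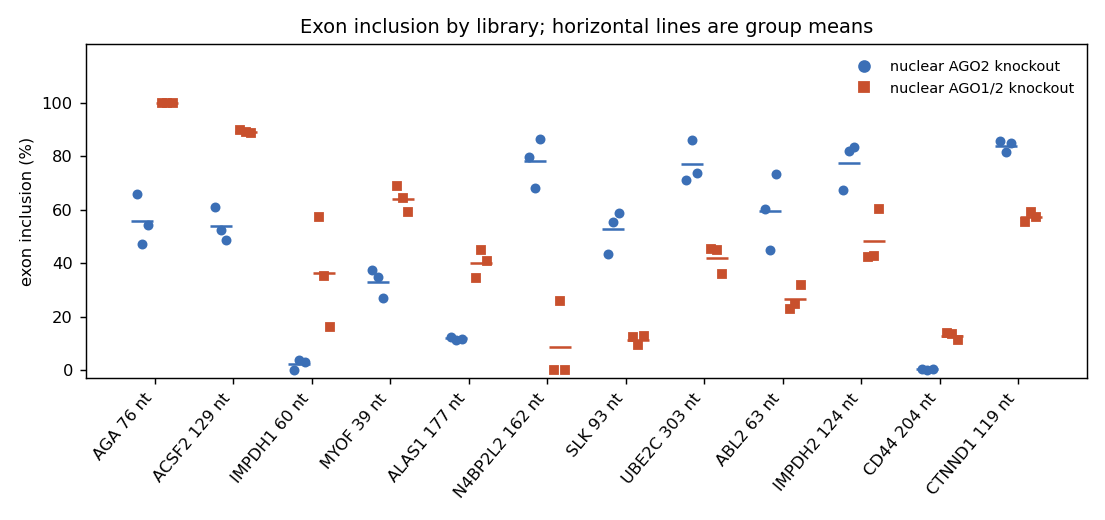
Exon inclusion (%) of 12 events in each nuclear AGO2 knockout library (circles) and each nuclear AGO1/2 knockout library (squares), with lines at group means and exon lengths in nt. The SLK exon lies between 43.5% and 58.9% in the AGO2 knockout and between 9.43% and 12.6% in the AGO1/2 knockout.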

How the data were processed

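The study made stranded total RNA libraries after removal of ribosomal RNA from nuclear and cytoplasmic fractions of HCT116 lines. The submitters' processing notes name STAR 2.5.3a, Salmon 0.11.0 and DESeq2, and the authors used hg38. The deposited tables hold estimated counts and TPM per transcript, which the authors made with Salmon. TPM values were deposited per library and sum to 1000000.

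Estimated counts were summed per gene and rounded. Of 200401 transcripts 196040 (97.82%) were matched to GENCODE 44, and the unmatched ones held 3.12% to 3.86% of reads in the 6 libraries. Genes were tested with edgeR 4.0.16 (quasi-likelihood, TMM, filterByExpr with a minimum count of 10, all 15 nuclear libraries, no block; R 4.3.3), with contrasts for fraction (30 libraries) and AGO2 status, and exon events with limma 3.58.1 on log2((inclusion TPM + 0.1)/(skipping TPM + 0.1)). The scripts were tested on simulated data. For 3 against 3, an exact permutation p cannot go below 0.1. Counting intervals cover counting error only.

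Groups came from the sample titles. The comparison, its members and the 41 gene lists were chosen with earlier results of these data known. The text names AGO1 to AGO4, called genes of at least 2 CPM in the higher group without overlap (the 12 protein-coding and 4 noncoding genes with the largest rise and fall), the 5 with the largest TPM change each way, leading and key members of lists, the 5 called genes each way with the largest difference in each contrast, the 5 leading exon events each way, and 7 exons of the study. The list of ESRP targets, the chromosome 8 boundary and TMM from protein-coding genes were chosen after the data were seen. Alternatives were DESeq2 1.42.0, RLE factors, other filters, length-scaled counts, limma on log2 TPM, the 6 libraries alone, passage as a block and leaving out each library. The 8 eCLIP samples were not analysed here, and some genes that the rule names are not reported here.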

Additional observations from a re-analysis of the deposited data

Results flagged for a closer look

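The effect of the comparison differed between nuclei and cytoplasm for 3293 genes. Differences are nuclear minus cytoplasmic log2 fold changes. IGF1R, a growth factor receptor, had 4.03, with a fall in both fractions that was larger in cytoplasm. GALNT3, which starts mucin-type glycosylation, had 2.18 from falls of -3.71 and -5.97. CCNJL had 1.64, HSPE1-MOB4 1.59 and ENSG00000256500 2.20. Toward lower nuclear effects, MIA had -4.05, with a larger rise in cytoplasm. LVRN had -3.53, with a rise called in cytoplasm (4.38) but not in nuclei (0.93), where its groups overlapped. The small RNAs SNORA7A, SNORD89 and RNVU1-14 had -6.15, -3.98 and -3.84. SNORA7A and SNORD89 were near 0 in cytoplasm, so their differences depend on the prior count of the fit and are no bounds. Low cytoplasmic means also stood behind IGF1R and GALNT3 (0.0646 and 0.126 CPM in the AGO1/2 knockout) and MIA and LVRN (0.0168 and 0.0653 CPM in the AGO2 knockout). The sizes of their differences therefore rest on low counts.

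The effect also differed by AGO2 status for 7368 genes, as the effect of AGO1 loss without AGO2 minus its effect with AGO2. DCLK1 and TM4SF18 had 13.54 each, PRKAA2 18.18 and ENSG00000257411 17.62. ANK3 had -11.32, SLC1A3 -8.38, HMCN1 -7.64, LRP1B -7.41 and ZNF704 -6.30. These values are differences of fits in which at least 1 group is at or near 0, so they are no bounds. For ENSG00000257411 the groups overlapped, with no read in the AGO2 knockout and in 1 of the AGO1/2 libraries. Each genotype is 1 line, so line and genotype cannot be told apart in either contrast.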

How the results depend on the processing

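The number of genes called stayed between 8395 and 10395 over all alternatives, against 10284, and between 8984 and 10056 when 1 library was left out. AGO1 stayed between -2.22 and -1.71 and was called in each, with -2.11 to -2.03 when 1 library was left out. With passage as a replicate block in the 6 libraries 10363 genes were called and AGO1 was at -2.09. That fit leaves 1 residual degree of freedom, so its count says little about stability. The passages did not pair the libraries, since the deviations of equal passages correlated at 0.009 (passage 9) and -0.085 (passage 10) between the genotypes, so the block is given as an alternative only. Under it 4 named genes lost their call. Over named genes and alternatives 2779 values kept direction and call, 163 lost the call and 5 gained it. Direction turned for H4C15 (0.059364 with length-scaled counts, 0.20705 on log2(TPM + 1) and 0.21652 on log2(TPM + 0.1)) and, on log2(TPM + 1) and log2(TPM + 0.1), for MOV10 (0.038632 and 0.03975), ENY2 (0.10694 and 0.10882) and DDX39B (0.060609 and 0.061063); the cause was not tested. Counts of genes differing between fractions ran from 2419 to 3360 and by AGO2 status from 6549 to 7696 when 1 library was left out. With culture as a replicate block 5884 genes differed between fractions.

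Exon events were the least stable count. Against 183, there were 548 with a pseudocount of 1 TPM, 115 with at least 5 TPM, 49 at 20 points, 62 in the 6 libraries alone and 0 with passage as a replicate block (1 residual degree of freedom; limma), and 82 to 142 when 1 library was left out. At an unadjusted p of 0.05, 4102 events passed. Clone, passage and genotype cannot be told apart, and depth limits genes with few reads to the intervals given.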

Other observations

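Other gene lists gave these values in nuclear AGO1/2 against nuclear AGO2 knockout, beside 27.6% of all genes higher and 26.7% lower. These lists hold protein-coding genes. Of the 12741 tested protein-coding genes with a 3′UTR of at least 100 nt, 37.1% were higher and 22.0% lower. Of 55 replication-dependent histone genes 29 were higher and 2 lower (median log2 fold change 0.31), or 15 and 3 with TMM factors from protein-coding genes, while in cytoplasm 3 were higher and 10 lower. Of 32 nuclear-encoded genes of the respiratory chain 11 were higher and 5 lower (median 0.12), which became 6 and 7 with those factors, and in cytoplasm 26 were lower and 0 higher (median -0.37). For 24 of these 32 genes the effect differed between the fractions. Most genes of both lists lay in the most cytoplasmic class, 48 of the 55 histone and 28 of the 32 respiratory chain genes. Measured from the median of that class of nuclear location, the list medians were 0.01 and -0.13. Of 165 zinc finger genes of chromosome 19, 26 were higher and 44 lower (median -0.06), but on log2(TPM + 0.1) 36 were higher and 8 lower.

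Among regulators of RNA, 10 of 20 mRNA export genes were higher and 4 lower, 8 of 18 Sm and LSm genes were higher and 2 lower, and 3 of 16 SR protein genes were higher and 5 lower, a balance that became 6 and 1 on log2(TPM + 0.1). Of 20 tissue splicing regulators 7 were higher and 5 lower, or 5 and 6 with TMM factors from protein-coding genes. Among signalling and chromatin lists, 11 of 26 genes of ERK output were higher and 4 lower, 6 of 20 stress response genes were higher and 1 lower, 5 of 14 DNA methylation genes were higher and 2 lower (1 and 3 with those factors), and 11 of 27 polycomb and heterochromatin genes were higher and 5 lower. Of 26 clustered protocadherin genes 7 were higher and 2 lower, and of 11 colon lineage genes 5 were higher and 2 lower, which became 3 and 4 with those factors. Measured from class medians of nuclear location, medians were -0.05 for Sm and LSm, -0.06 for tissue splicing, -0.03 for ERK and -0.02 for stress genes. For mRNA export, SR protein, DNA methylation, polycomb, protocadherin and colon lineage genes they were 0.1, 0.13, 0.15, 0.1, 0.75 and 0.3.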
